A study of Mus musculus with 5 samples.

Results

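The Notch pathway genes described here are 3 receptors (Notch1, Notch2 and Notch3), 3 ligands (Jag1, Jag2 and Dll1), 3 transcriptional targets (Hes1, Hey1 and Nrarp) and the glycosyltransferase Lfng. They were taken from an array data set of sorted mouse tracheal epithelial cells by symbol: every probe set that the array's gene annotation assigned to exactly 1 of these genes was used, which gave 18 probe sets for 10 genes, out of 45101 probe sets and 18193 genes with a probe set of their own. 3 genes (Dll1, Hes1 and Hey1) had 1 probe set, 6 had 2 and Jag1 had 3.

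RNA was hybridised from 5 samples, each a separate pool of 10 to 15 C57BL/6 mice, males and females, aged 8 to 12 weeks. The basal group held 2 samples of cells from the lower part of the trachea, freed as surface epithelium with the enzyme dispase and sorted for an epithelial surface antigen together with ITGA6, an integrin. The duct group held 3 samples from the upper part, sorted for that antigen without ITGA6 out of the tissue that was left once pronase had taken off the surface epithelium. Enzyme, tracheal section and sort gate therefore changed with the cell type, and their parts in any difference cannot be told apart. The labels name no transgene or treatment for either group.

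Notch receptors are single-pass membrane proteins that bind Jagged or Delta-like ligands on neighbouring cells. Binding exposes the receptor to ADAM proteases and then to gamma-secretase, and the released intracellular domain joins the DNA-binding protein RBPJ and Mastermind-like coactivators to switch on genes such as Hes1, Hey1 and Nrarp. Fringe glycosyltransferases, of which Lfng is one, modify the receptor's extracellular repeats and change which ligands activate it. In the airway epithelium Notch signalling favours secretory over ciliated fates among the daughters of basal cells, and in stratified epithelia it is tied to the exit from the basal layer.

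Values are linear intensities in arbitrary units, scaled by the authors to a common mean on each array. A difference is the duct mean less the basal mean of log2(intensity + 16), a scale that compresses differences of dim genes. It was tested with limma, with Benjamini-Hochberg adjustment over all 12536 genes tested and a threshold of 0.05. The most intense probe set stood for each gene. The median difference over all genes tested was -0.12, against -0.05 after quantile normalization and 0.08 after median centring of the arrays, so small differences are read against these values. Duct replicate 1 stood apart in its median intensity, at 92.3 against 146.6 to 152.8 on the other 4 arrays. Markers of basal cells were present in both groups: all 7 on the list were above the array background on all 5 arrays. Their sum, 81894 to 89707 on basal and 98794 to 113563 on duct arrays, holds differences of both signs. Krt14 (1327 and 1533 against 18615, 18421 and 22413) passed the threshold, Krt5 and Krt15 were also higher on every duct array, and Trp63 (9891 and 8038 against 7243, 7053 and 6944), Ngfr (difference -1.76) and Snai2 were lower on every duct array without passing it. Markers of stratified squamous epithelium (6 of 6 measured, all passing the threshold, among them Krt13 and Krtdap) summed to 8637 and 10645 on the basal arrays and to 75475 to 97796 on the duct arrays. Of the thyroid list 5 of 6 genes were measured, and 0 of them were above background on all 5 arrays. Its sum was 236 and 245 on basal against 9210 to 21101 on duct arrays. On the duct arrays nearly all of it was from Tg, the thyroglobulin gene and the one thyroid gene that passed. Tg measured 11.1 and 53.2 on basal against 8779, 16062 and 20119 on duct arrays. The part of other cells in the differences below was not tested. In RNA from sorted pools, fewer cells of a type and less RNA per cell cannot be told apart.

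Among the 10 genes, Notch1, Notch2, Jag1 and Nrarp were higher on every duct array than on both basal arrays, and Hey1 and Jag2 were lower on every duct array. The groups overlapped for Notch3, Dll1, Hes1 and Lfng. These 6 of 10 genes without overlap compare with 39.1% of all genes tested. With limma, 0 of 10 passed the threshold over all genes, where 0.973% did (0.838% higher and 0.136% lower in duct samples), with adjusted p from 0.0928 for Hey1 to 0.966 for Dll1. At an unadjusted p under 0.05, 3 (Notch1, Jag1 and Nrarp) were higher and 1 (Hey1) was lower, against 7.91% and 10.6% of all genes. The median difference of the 10 genes was -0.05, and 4 were positive and 6 negative. With quantile normalization and with centring on medians 7 were positive, since Dll1, Hes1 and Lfng lay near 0 and changed sign.

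**Figure D1:**
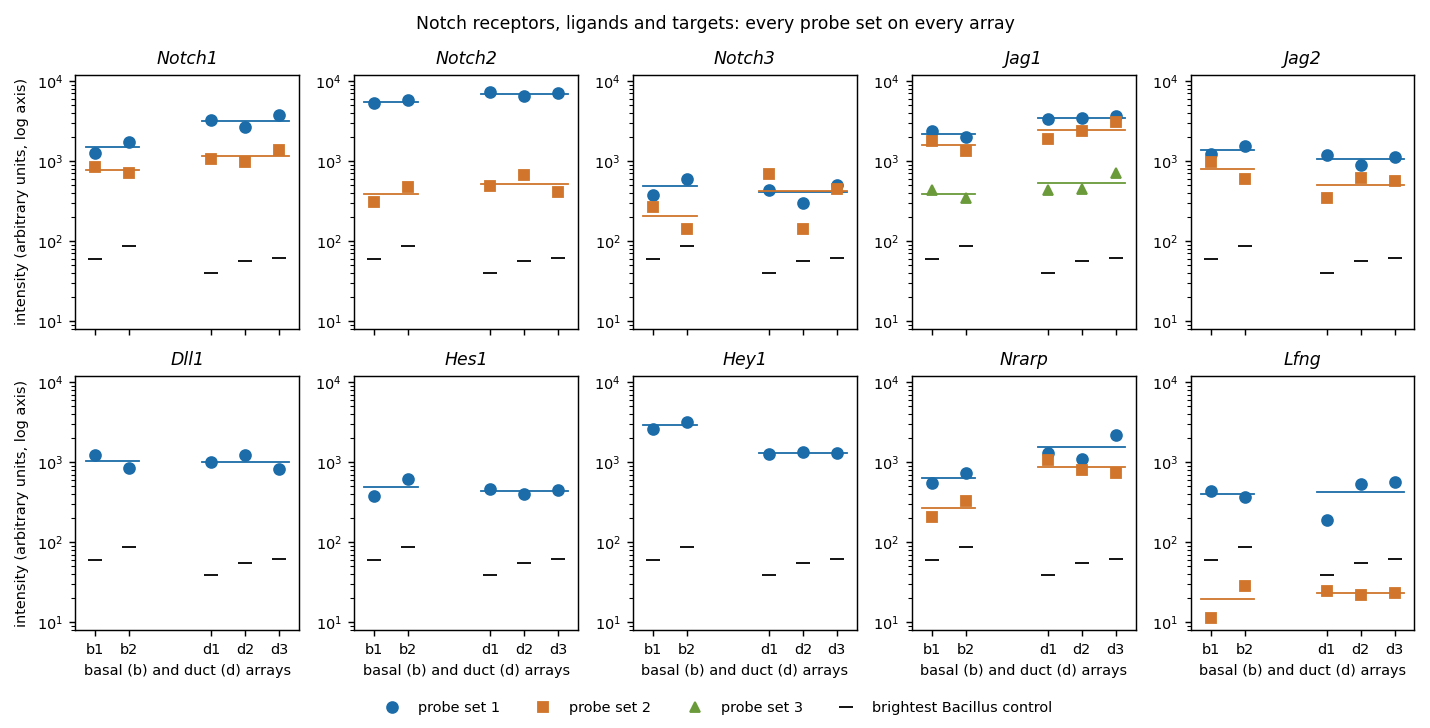
Intensity in arbitrary units (log axis) of every probe set of the 10 Notch genes on the 2 basal (b1, b2) and 3 duct (d1 to d3) arrays; lines are group means and black dashes the brightest Bacillus control probe set of each array, taken as background. Hey1 lies at 2623 and 3179 on the basal arrays and at 1279 to 1332 on the duct arrays, while both probe sets of Nrarp and of Notch1 are higher on the duct arrays.

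Promoter sequence is shown for the 3 genes that were higher on every duct array by an unadjusted p under 0.05 (Nrarp, Notch1 and Jag1) and for Lfng. Among the 8 members with a promoter sequence at hand, Lfng was the one with a match to the RBPJ core motif. The sequences are the 250 bases before the annotated start from RefSeq (build GRCm38.p6), on the gene's strand, 5′ to 3′, at chr2:25180508-25180757 (plus strand) for Nrarp, chr2:26503823-26504072 (minus) for Notch1, chr2:137116521-137116770 (minus) for Jag1 and chr5:140607091-140607340 (plus) for Lfng. Capitals mark matches to TGGGAA on either strand.
Nrarp: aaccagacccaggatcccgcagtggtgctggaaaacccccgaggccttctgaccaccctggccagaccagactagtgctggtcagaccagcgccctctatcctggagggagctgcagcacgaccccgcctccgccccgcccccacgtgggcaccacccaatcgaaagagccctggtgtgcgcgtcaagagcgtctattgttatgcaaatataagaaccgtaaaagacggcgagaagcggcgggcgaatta
Notch1: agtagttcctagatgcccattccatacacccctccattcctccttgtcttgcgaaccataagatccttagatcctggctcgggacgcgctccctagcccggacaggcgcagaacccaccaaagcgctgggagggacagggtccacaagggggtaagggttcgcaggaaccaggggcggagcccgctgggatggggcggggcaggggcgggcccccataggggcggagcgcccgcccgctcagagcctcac
Jag1: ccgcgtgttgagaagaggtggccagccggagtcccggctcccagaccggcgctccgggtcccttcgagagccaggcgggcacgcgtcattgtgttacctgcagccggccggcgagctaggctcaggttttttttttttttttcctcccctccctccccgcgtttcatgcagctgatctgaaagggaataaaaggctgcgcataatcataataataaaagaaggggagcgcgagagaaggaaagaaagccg
Lfng: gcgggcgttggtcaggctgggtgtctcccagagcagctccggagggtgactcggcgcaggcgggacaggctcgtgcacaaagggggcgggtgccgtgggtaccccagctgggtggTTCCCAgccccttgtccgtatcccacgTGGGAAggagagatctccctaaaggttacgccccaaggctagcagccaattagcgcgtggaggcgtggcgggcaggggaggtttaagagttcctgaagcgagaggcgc
The promoter table held 8 of the 10 genes, with 9 starts, since Dll1 has 2. Hes1 and Hey1 were not in it, so their promoters were not searched for the motif. The motif TGGGAA, searched on both strands, matched in 1 of the 9 windows, that of Lfng, against 21.6% of 32851 promoter windows of the same length. Lfng held 2 matches, 1 on each strand, with first letters 135 and 108 bases before the start. Windows with 2 or more matches made up 2.77% of all. The second match is also a match to the longer form GTGGGAA, which contains TGGGAA and occurs in 5.42% of windows. The windows of Nrarp, Notch1 and Jag1 did not hold these letters, which says nothing of sites elsewhere. A match is a description of the letters.

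Of the receptors, Notch1, probe set 1418634_at, measured 1244 and 1742 in the basal samples against 3217, 2670 and 3705 in the duct samples. All 3 duct arrays thus lay above both basal arrays, with means of 1493 ± 352 (SD, n = 2) and 3197 ± 518 (SD, n = 3), 2.14-fold apart. The log2 difference was 1.10 (SE 0.29, adjusted p = 0.136). Its second probe set, 1418633_at, showed the same order with a smaller difference, 831 and 701 against 1070, 982 and 1360, at 0.55. Notch1 passed the threshold only in the fit with an intensity trend and robust variances (adjusted p = 0.0133), 1 of 16 alternatives; over those alternatives its adjusted p ran up to 0.460.

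Notch2, probe set 1455556_at, measured 5308 and 5734 in the basal samples against 7283, 6469 and 7108 in the duct samples. The groups did not overlap, but the difference was small, at 0.33 (SE 0.23, adjusted p = 0.487). Its dimmer probe set gave 0.41, and there the groups overlapped, at 309 and 468 against 488, 661 and 411. Notch3 had 2 probe sets that disagreed. The more intense one, of a kind that can detect related transcripts (its name ends in _s_at), measured 374 and 600 in basal against 436, 301 and 507 in duct samples, a difference of -0.22 (SE 0.35, adjusted p = 0.773). The other measured 269 and 141 against 679, 143 and 440, a difference of 0.80 on the same scale (adjusted p = 0.622 in the fit by probe set). Duct replicate 2 lay at the level of basal replicate 2 on the latter, so neither probe set set the groups apart. Blood vessel walls also express Notch3. Of the 6 mural cell markers on the list, Cspg4 (24.4 and 18.7 against 393, 297 and 317) was higher in duct samples with limma (adjusted p = 0.00937), and Des was at background on all 5 arrays. The smooth muscle genes Acta2 and Myh11 had opposite differences on their most intense probe sets. Acta2 measured 119 and 142 against 316, 429 and 459 (adjusted p = 0.0751), and Myh11 357 and 289 against 13.6, 80.7 and 30.7 (adjusted p = 0.0806). On dimmer probe sets of both genes the groups overlapped. Acta2 gave -0.90 and -0.45 there, without passing the filter, and Myh11 gave -0.28. The list summed to 591 and 729 on basal and 907 to 1114 on duct arrays. Their part in the Notch3 values was not tested.

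Notch1 and Notch2 are also genes of endothelium and leukocytes. No endothelial marker of 8 was above background on all 5 arrays, Kdr, Tek and Tie1 were at background on every array, and the list summed to 402 and 429 on basal and 154 to 463 on duct arrays. Of the 8 leukocyte markers 3 were above background throughout, 5 were tested (4 positive and 1 negative) and 0 passed with limma, 1 of them at an unadjusted p under 0.05. The list summed to 955 and 1608 on basal arrays and 1713 to 2269 on duct arrays. All 3 duct sums of the leukocyte list were thus above both basal sums, as for Notch1 and Notch2. These sums use each gene's most intense probe set. For Csf1r it measured 8.97 and 168 against 590, 137 and 210. Its dimmer probe sets gave 60.4 and 121 against 69.1, 70.2 and 99.4 (-0.11) and a difference of 0.54. For Laptm5 it measured 78.0 and 372 against 338, 958 and 296, and no dimmer one exceeded 136. Sums with other probe sets were not computed, so the order of the sums may depend on this choice. Of the 5 single markers tested, however, 4 overlapped between the groups. Only 1, Cd68 (189 and 211 against 294, 437 and 313), did not, beside 39.1% of all genes tested. The part of leukocytes in the Notch1 and Notch2 values was not tested.

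The ligands had differences of both signs. Jag1, one of the Jagged ligands, measured on probe set 1434070_at 2368 and 1988 in the basal samples against 3301, 3399 and 3655 in the duct samples. Every duct value was above both basal values, with means of 2178 ± 268 (SD, n = 2) and 3452 ± 183 (SD, n = 3) and a log2 difference of 0.66 (SE 0.23, adjusted p = 0.222). Its second probe set agreed in order, at 1777 and 1348 against 1871, 2392 and 3056 (difference 0.62), and the third overlapped, at 435.3 and 344 against 435.0, 446 and 708 (0.40). Duct replicate 3 was the highest array on all 3 probe sets of Jag1.

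Jag2, the other Jagged ligand, had a negative difference. Its probe set 1426431_at measured 1233 and 1541 in the basal samples against 1194, 893 and 1121 in the duct samples, a difference of -0.37 (SE 0.26, adjusted p = 0.499). Only a narrow gap separated basal replicate 1 from duct replicate 1. On its second probe set the values were 972 and 594 against 340, 615 and 567, a difference of -0.61, with an overlap between basal replicate 2 and duct replicate 2. Dll1, a Delta-like ligand, measured on probe set 1419204_at 1237 and 846 in basal against 1005, 1218 and 818 in duct samples. The groups covered the same range (difference -0.03, SE 0.30, adjusted p = 0.966).

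The 3 targets had no common direction. Hey1, a basic helix-loop-helix repressor gene induced by Notch, measured on its probe set 1415999_at 2623 and 3179 in the basal samples against 1279, 1332 and 1319 in the duct samples. The duct values lay within a narrow range and well under both basal values, with means of 2901 ± 393 (SD, n = 2) and 1310 ± 27.5 (SD, n = 3). The log2 difference was -1.13 (SE 0.23), with the lowest adjusted p of the 10 genes, 0.0928, in limma's fit. It passed the threshold with a stricter filter that drops 60% of probe sets (adjusted p = 0.0435) and in the trend fit (0.00859); over all 16 alternatives the difference ran from -1.27 to -0.92 and the adjusted p up to 0.385.

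Nrarp, which encodes a small ankyrin-repeat protein that is induced by Notch and limits its signal, measured on probe set 1417985_at 543 and 741 in the basal samples against 1288, 1108 and 2198 in the duct samples. All duct values were higher, and duct replicate 3 was the highest. The means were 642 ± 140 (SD, n = 2) and 1531 ± 584 (SD, n = 3), and the difference was 1.19 (SE 0.37, adjusted p = 0.189). The second probe set, 1417986_at, separated the groups further, at 207 and 324 against 1081, 803 and 730, a 3.28-fold ratio of means. Its log2 difference of 1.67 (SE 0.33, adjusted p = 0.134 over 27022 probe sets) was the largest of the 17 Notch probe sets tested, and on it duct replicate 1 was the highest. Nrarp passed the threshold only in the trend fit (adjusted p = 0.0481). Its promoter window, shown above, had no match to the RBPJ core letters.

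Hes1, the basic helix-loop-helix repressor gene most often used as a readout of Notch, measured on probe set 1418102_at 374 and 613 in the basal samples against 468, 403 and 455 in the duct samples. The duct values lay between the basal ones, and the difference of -0.12 (SE 0.29, adjusted p = 0.861) equalled the median of all genes to 2 decimals. It was 0.23 without basal replicate 2 and -0.46 without basal replicate 1. Lfng, probe set 1420643_at, measured 441 and 370 in the basal samples against 190, 529 and 567 in the duct samples (difference -0.06, SE 0.51, adjusted p = 0.961). Duct replicate 1 was the lowest array, and without it the difference was 0.42 (adjusted p = 0.463). The other Lfng probe set was at background on all 5 arrays, at 11.4 to 28.2, and did not pass the filter on low values.

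**Figure D2:**
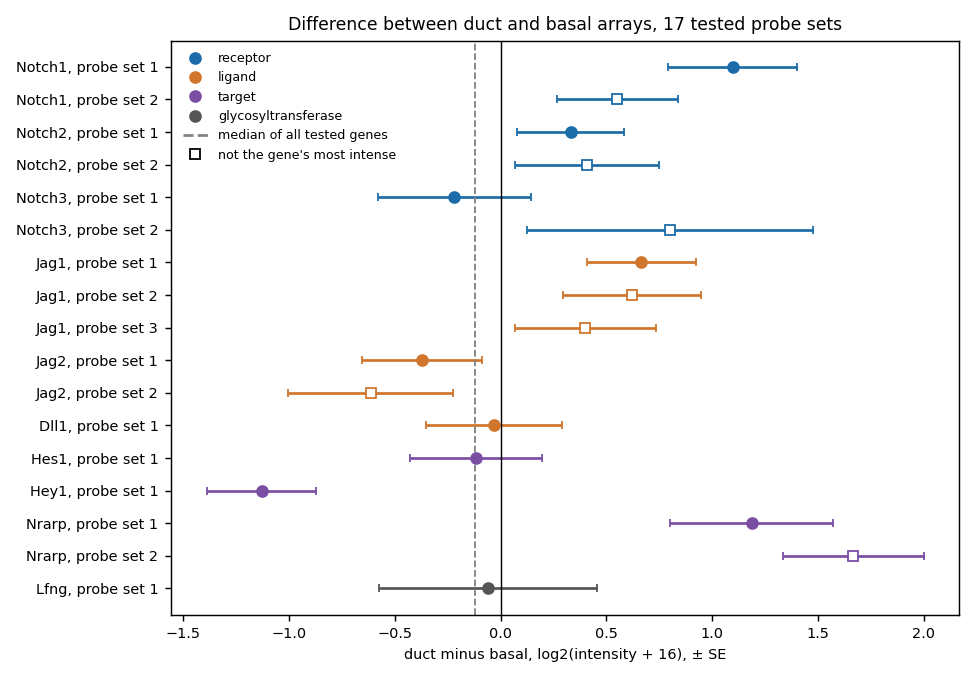
Difference between duct and basal arrays on the log2(intensity + 16) scale, ± SE of the fit by probe set, for the 17 Notch probe sets that passed the filter on low values; filled circles stand for the gene in the fit by gene. The 2 probe sets of Nrarp lie at 1.19 and 1.67, Hey1 lies at -1.13, and the 2 probe sets of Notch3 lie on either side of 0.

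By probe set, 17 of the 18 passed the filter and 0 of these passed the threshold with limma (0.233% of 27022 did), with 5 at an unadjusted p under 0.05 (14.9%). The groups did not overlap for 7 that were higher and 2 that were lower in duct samples, against 14.9% and 20.7% of all probe sets (35.6% in either direction). Probe sets of a gene share its transcript and are not independent. Apart from Notch3, and from the Lfng probe set at background, each gene's probe sets had differences of the same sign.

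To set the genes side by side with little effect of each array's scaling, differences between 2 members were taken within each array and expressed relative to the basal mean. The 7 pairs were chosen after their values were seen, so they are given without a test. The difference Nrarp minus Hey1 was 2.17, 1.90 and 2.89 on the duct arrays, while the basal arrays lay at -0.08 and 0.08. The mean shift between these Notch targets was 2.32 ± 0.51 (SD, n = 3) on the log2 scale. Against Hes1, Nrarp was shifted by 1.30 and Hey1 by -1.01. Among the ligands Jag1 minus Jag2 was 0.81, 1.26 and 1.04 on the duct arrays, against -0.28 and 0.28 on the basal arrays. Among the receptors Notch1 minus Notch2 was shifted by 0.77 and Notch1 minus Notch3 by 1.32. In all 7 pairs the duct arrays did not overlap the basal arrays. Because the pairs were picked from seen values, that count carries no weight, and the share among all pairs of genes was not computed. Such a shift does not say which gene of a pair differed.

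**Figure D3:**
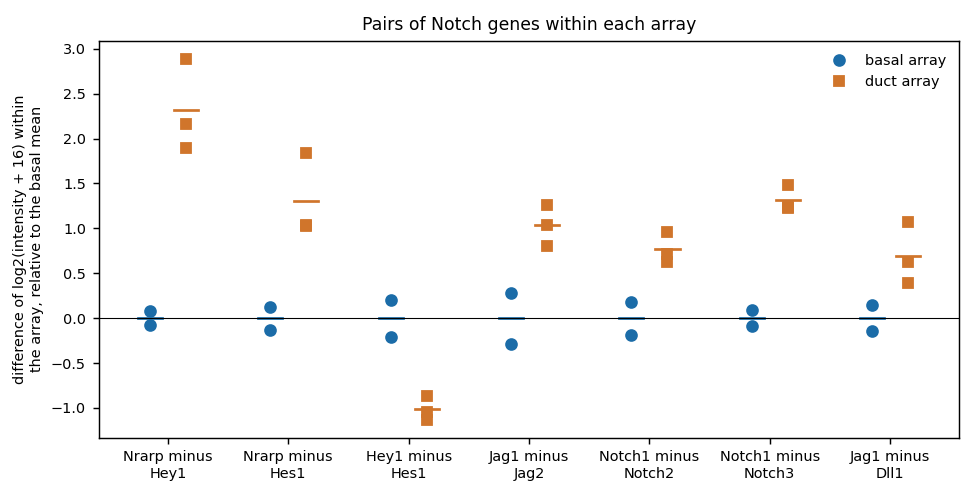
Difference of log2(intensity + 16) between 2 Notch genes on the same array, for 7 pairs, set to a basal mean of 0 (circles, 2 basal arrays; squares, 3 duct arrays; lines, means). Nrarp minus Hey1 is the widest shift, at 1.90 to 2.89 on the duct arrays, and Hey1 minus Hes1 is the one pair that lies below the basal arrays.

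The other genes of the pathway were taken from a list of 56, ordered by role, of which 51 had a probe set of their own and 39 passed the filter on low values. With limma 0 of the 39 passed the threshold, against 0.973% of all genes. At an unadjusted p under 0.05, 1 was higher and 7 were lower in duct samples, against 7.91% and 10.6% of all genes. The groups were apart for 2 genes that were higher and 13 that were lower in duct samples, against 16.5% and 22.6% of all genes. The median difference was -0.22 beside -0.12 over all genes, with 13 positive and 26 negative; centring on medians gave -0.01, with 18 positive and 21 negative.

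Among regulators of ubiquitination and endocytosis (13 tested, 5 positive and 8 negative), Dtx4, a Deltex E3 ubiquitin ligase gene, had the largest difference of the whole list. It measured 1016 and 1120 in the basal samples against 250, 262 and 145 in the duct samples, and every duct value was thus below both basal values. The difference was -2.24 (SE 0.32), with an adjusted p of 0.0505, and its second probe set went the same way, at 605 and 851 against 199, 304 and 244. Dtx4 passed the threshold under 7 of 16 alternatives, with adjusted p from 0.00397 to 0.295 over all of them. Aak1, an endocytic kinase gene named for its high mean intensity, measured 3833 and 3006 against 3602, 3166 and 2168 (difference -0.22, adjusted p = 0.748). Its second probe set was lower on every duct array, at 1118 and 606 against 396, 603 and 491 (-0.73, adjusted p = 0.425 in the fit by probe set). The mean over all Aak1 probe sets gave -0.56. Dtx1, another Deltex gene and one classed as a Notch target in lymphocytes, is named after its values were seen. It measured 67.7 and 46.1 in the basal samples, against 131, 211 and 216 in the duct samples (1.46, adjusted p = 0.101), and passed with quantile normalization and with centring on medians (adjusted p = 0.0470 and 0.0477). Its other probe set overlapped, at 76.0 and 54.1 against 44.6, 102 and 81.7.

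Both further genes listed as targets that could be tested, Hes5 and Hes6, had negative differences. For Hes5 it was -0.91 (SE 0.98, adjusted p = 0.665), and the groups overlapped. Hes6, a helix-loop-helix gene related to Hes1 that counteracts it, measured 854 and 698 in the basal samples against 275, 248 and 62.2 in the duct samples. No duct array reached a basal array, and the difference was -2.12 (SE 0.61, adjusted p = 0.164). Without duct replicate 3, the lowest array, it was -1.51. Its probe set ends in _x_at, the kind most open to cross-hybridisation, and in the dimmer second probe set the order was the same, at 122 and 152 against 24.6, 84.0 and 13.6. Hes6 passed in the trend fit alone (adjusted p = 0.0400).

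The 3 glycosyltransferases tested were all negative. Pofut1, which adds the O-linked fucose that fringe enzymes extend, measured 1414 and 800 in the basal samples against 185, 377 and 407 in the duct samples. The groups did not overlap (difference -1.75, SE 0.44, adjusted p = 0.130), and the basal samples lay far apart. Its other 2 probe sets did not pass the filter and had opposite signs, at 0.69 and -0.58. The former was above background on 1 array only, and the latter on 0 arrays. Averaged over all 3, the difference of Pofut1 was -0.54. It passed in the trend fit (adjusted p = 0.0242). Rfng, another fringe gene, measured 470 and 828 against 521, 524 and 454 (-0.31, adjusted p = 0.634). Its other probe set was lower on every duct array, at 331 and 336 against 119, 206 and 131 (-1.09, SE 0.32, adjusted p = 0.222 in the fit by probe set).

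Genes for proteases that cut the receptor, counted together with gamma-secretase subunits, were split, with 5 of 8 positive and 3 negative. Psenen, a gamma-secretase subunit gene, measured 4052 and 3294 in the basal samples against 4456, 3668 and 4481 in the duct samples (0.20, adjusted p = 0.719), and Aph1a, another subunit gene, 1126 and 1882 against 1177, 997 and 663 (-0.65, adjusted p = 0.404). In both the groups overlapped on these probe sets. The other 2 probe sets of Aph1a separated the groups in opposite directions, at 141 and 110 against 238, 227 and 559 (1.23, adjusted p = 0.301 in the fit by probe set) and at 273 and 281 against 245, 172 and 72.9 (-0.84, adjusted p = 0.473), and the mean over its probe sets was -0.090. Of 11 nuclear cofactors 9 were negative and 2 positive, with a median of -0.22 beside -0.12 over all genes. Among the negative ones Cir1 (-0.03), Maml1 (-0.05) and Maml2 (-0.13) lay near 0 or near the median of all genes. Kat2b, an acetyltransferase gene that serves as a coactivator, measured 2294 and 1385 against 1066, 772 and 915 (-0.96, adjusted p = 0.206), without overlap. That probe set ends in _s_at, and a dimmer one that overlapped gave -0.53. The last Kat2b probe set, which did not pass the filter, gave 0.29, and the mean over all of them was -0.40. Hdac1, a corepressor deacetylase gene, measured 2293 and 1954 against 2492, 2170 and 3806 (0.37, adjusted p = 0.582). Rbpj itself, named after its values were seen, measured 645 and 703 against 359, 664 and 326 (-0.64, adjusted p = 0.408), and its other 2 probe sets also gave negative differences. Of the non-canonical ligands Dlk2 measured 737 and 380 against 453, 412 and 538 (-0.18, adjusted p = 0.811; its other probe set, also overlapping, gave 0.38) and Dlk1 67.1 and 123 against 98.0, 133 and 146 (0.38, adjusted p = 0.579). The other Dlk1 probe set, which did not pass the filter, gave -0.25, and the mean over its probe sets was 0.067.

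**Figure D4:**
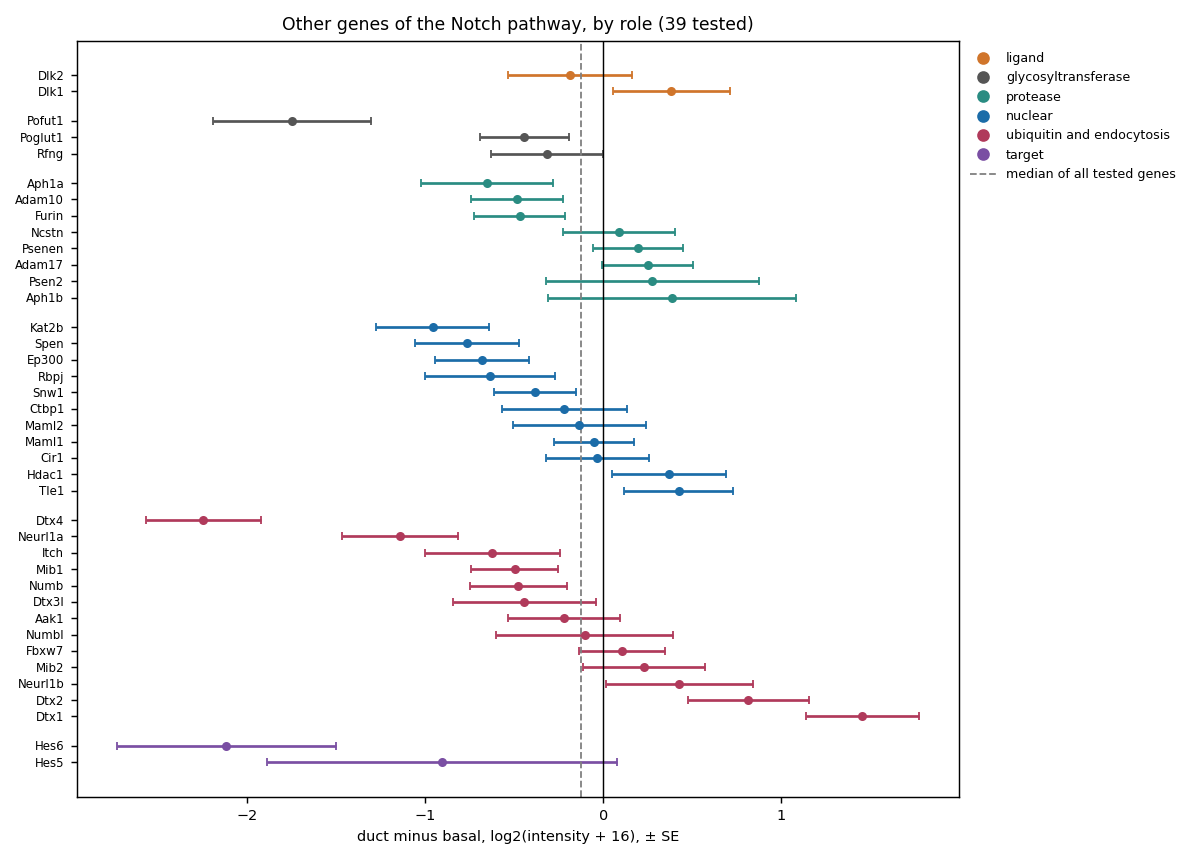
Difference between duct and basal arrays on the log2(intensity + 16) scale, ± SE, for the 39 tested genes of the wider Notch pathway list, ordered by role; the dashed line is the median of all genes tested. Dtx4 and Hes6 lie farthest to the left, at -2.24 and -2.12, and Dtx1 farthest to the right, at 1.46.

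The cell types that Notch balances in the airway surface were also compared through their markers. The 6 club cell markers, all above background throughout, summed to 105955 and 148966 in the basal samples against 92965 to 110547 in the duct samples. The 8 ciliated cell markers summed to 3350 and 5502 on basal and 3932 to 4782 on duct arrays, and 5 of them were above background throughout. Both sums overlapped between the groups, while single markers did not. Of the club cell markers Scgb3a2 (32282 and 32688 against 22218, 21106 and 23248, difference -0.55), Cyp2f2 (-0.24) and Cbr2 (-0.31) were lower on every duct array. Of the ciliated cell markers Ccdc39 (263 and 329 against 76.6, 130 and 64.1, difference -1.60, adjusted p = 0.0963) was lower and Tppp3 (2077 and 2200 against 2977, 3045 and 3202, difference 0.52) higher on every duct array. None of the club or ciliated cell markers passed the threshold with limma, and 1 (Ccdc39) had an unadjusted p under 0.05. Of the neuroendocrine list 4 of 6 markers were measured, summing to 191 and 439 on basal and 283 to 590 on duct arrays. The 6 gland secretory markers summed to 9899 and 33788 on basal and 24926 to 42502 on duct arrays, with Dcpp1 at background on every array, and the 6 fibroblast markers to 3791 and 4714 against 1804 to 4247.

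For the 3 members with the largest differences, the genes with the most similar profile were found by the root mean square difference of log2 values, each gene centred on its own mean over the 5 arrays. Nearest to Nrarp were Ankrd22 (0.095), Ercc6l (0.12) and Unc5b (0.14). Unc5b, for example, measured 827 and 911 in the basal samples against 1660, 1716 and 2714 in the duct samples, with duct replicate 3 highest as for Nrarp. Nearest to Hey1 were Morn2 (0.042), Scaper (0.046) and Cav1 (0.060), and Cav1, the caveolin gene, measured 7676 and 9513 against 3685, 3549 and 3704. Nearest to Notch1 were Dctpp1 (0.045), Cks2 (0.068) and Chchd10 (0.078), and Cks2, a gene of the cyclin-dependent kinase machinery, measured 1750 and 2163 against 4508, 3466 and 4997. The measure covers 5 arrays in 2 groups and takes in the difference between groups as well as the spread within them.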

How the data were processed

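Expression was measured on Affymetrix whole-genome mouse arrays in 2 basal and 3 duct samples, grouped by their titles. The deposited table holds 1 linear intensity per probe set and array; by its values, each array was scaled by the authors to a mean of 500.0 after trimming 2% at each end. How probes were summarised is not given in the sources used here, and no detection calls were used. 64 control probe sets were left out. The brightest of 27 Bacillus probe sets on each array served as background. Probe sets in the lowest 40% by mean log2 value were filtered out, the most intense one stood for a gene, and 12536 genes were tested on log2(intensity + 16), 2-sided, with limma 3.58.1 in R 4.3.3 on all 5 arrays without covariates (3 residual and 2.79 prior degrees of freedom); 27022 probe sets were tested likewise. All adjusted p-values are limma's with Benjamini-Hochberg adjustment. The fit was tested on simulated data. Where an alternative left an array out, probe sets and filter stayed as chosen on all 5; with 1 basal array left, its variance is taken to be that of the duct group. The members and lists were chosen with earlier results of these data known. Tested pathway genes were named by rule: in each role the highest mean and the largest absolute difference, and any passing the threshold. Dtx1, Rbpj, Hes5, Cir1, Maml1, Maml2 and the dim genes under the other observations were named outside this rule. The number of arrays limits the precision. Replicates are separate pools, and any 2 arrays had at most 1 value in common. Figures were drawn with matplotlib 3.10.9.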

Additional observations from a re-analysis of the deposited data

How the results depend on the processing

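Each result was recomputed under 16 alternatives. Directions of Notch1, Notch2, Jag1, Jag2, Hey1 and Nrarp were kept under all 16; the cause of the changes below was not tested. The 122 genes that passed became 338 with centring on medians, 303 with a pseudocount of 64, 36 with no filter, 408 with the lowest 60% left out, 191 with probe sets averaged per gene, 942 with an intensity trend and robust fit, and 0 to 48 with 1 array left out. The 63 probe sets became 101 with quantile normalization, 375 with centring, 206 with a pseudocount of 64, 27 with no filter, 341 with 60% left out, 1215 with the trend, and 0 to 26 with 1 array left out. The number of the 10 Notch genes passing was 1 with 60% left out (Hey1) and 3 with the trend. Their median difference of -0.05 was 0.091 with quantile normalization, 0.16 with centring, 0.17 with the mean of probe sets, 0.15 without possibly cross-hybridising probe sets, 0.074 with array weights and -0.033 to 0.17 with 1 array left out. For the wider list the median of -0.22 was -0.013 with centring, -0.31 with no filter, -0.30 with array weights and -0.37 to -0.22 with 1 array left out. Of that list 1 gene passed with quantile normalization (Dtx1), 2 with centring (Dtx1 and Dtx4), 3 with the trend (Pofut1, Dtx4 and Hes6), and 1 (Dtx4) each with a pseudocount of 64, with 60% left out, with the mean of probe sets, without cross-hybridising probe sets and with array weights.

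Genes near 0 changed sign. With quantile normalization Dll1 was at 0.0065, Hes1 at 0.020 and Lfng at 0.16; with centring Dll1 was at 0.17, Hes1 at 0.090, Lfng at 0.15 and Dlk2 at 0.022. With the mean of probe sets Notch3 was at 0.29, Lfng at 0.059 and Dlk2 at 0.10; without cross-hybridising probe sets Notch3 was at 0.80; with array weights Dll1 was at 0.018 and Lfng at 0.13. With 1 array left out Dll1 ran from -0.30 to 0.24, Lfng from -0.33 to 0.42, Dlk2 from -0.65 to 0.28, Notch3 from -0.55 to 0.11, Hes1 from -0.46 to 0.23 and Rfng from -0.71 to 0.084.

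The labels do not pair basal with duct samples by replicate number, and they do not say whether samples of the same number share mice. With the replicate number as a block, 0 genes and 0 probe sets passed, and Dll1 was at 0.11; the correlations of deviations across genes were -0.083 for number 1 and -0.037 for number 2. Duct replicate 3 is alone in its block, so that fit gives the differences found without it.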

Other observations

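Some of the Notch genes too dim for the tests, picked outside the naming rule, are given as values only. Others of the wider list, such as Dll3, are not described. Hey2, a relative of Hey1, measured 88.1 and 69.2 in the basal samples against 15.7, 30.1 and 32.4 in the duct samples, where all 3 were at background; on the basal arrays it stood above the brightest control probe set on 1 of 2. Dll4, the Delta-like ligand of endothelium, was at background on all 5 arrays with both of its probe sets, at 3.55 to 73.3. Notch4, the endothelial receptor, had 3 probe sets between 3.56 and 57.9, of which 1 exceeded background on 1 array. The brightest probe set of Heyl, the third Hey gene, measured 63.7 and 194 in the basal samples against 2.24, 106 and 115 in the duct samples, and its other 2 probe sets exceeded background on 1 array each. The brightest probe set of Hes5, which passed the filter and was tested as given above, was spread within the duct group, at 32.4, 331 and 19.8, beside 125 and 162 on the basal arrays.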
